A study of Mus musculus with 2 samples.

Results

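The beta tubulin genes encode one of the 2 proteins whose dimers polymerise into microtubules. The 8 listed genes (Tubb1, Tubb2a, Tubb2b, Tubb3, Tubb4a, Tubb4b, Tubb5 and Tubb6) were chosen by name, and all 8 were found among 43346 genes in the tables. The tissue was testis of a single C57BL/6J male (an inbred mouse strain), an adult of 10 weeks, and its polyA mRNA was read. Both libraries come from this animal (biological replicate 1) and are its technical replicates 1 and 2, the second of which was made later according to the labels. There is 1 group, so no condition was compared, and no value has a replicate across animals. Values are given in the order replicate 1 and replicate 2.

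Beta tubulins pair with alpha tubulins, and the dimers build the mitotic and meiotic spindles, the manchette that surrounds the elongating spermatid nucleus, and the axoneme of the sperm tail. The isotypes are most alike in the folded core and differ most at the acidic carboxyl end, where glutamate residues receive chains of glutamate or glycine. Vertebrate beta tubulin proteins also share a conserved opening, which is recognised as it emerges from the ribosome and controls the stability of tubulin mRNA. In a bulk sample, fewer cells of a type and less RNA per cell cannot be told apart.

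The last 60 coding bases, stop codon included, are shown because they carry the part by which the isotypes are classed. They come from GENCODE M21 transcripts (GRCm38) and run from 5′ to 3′. Capitals mark the in-frame GAA and GAG codons, which encode glutamate.
Tubb4b (chr2:25222308-25222367, minus strand): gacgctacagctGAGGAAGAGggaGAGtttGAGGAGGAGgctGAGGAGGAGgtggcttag
Tubb4a (chr17:57080690-57080749, minus strand): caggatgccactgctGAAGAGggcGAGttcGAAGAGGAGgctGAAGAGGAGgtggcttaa
Tubb5 (chr17:35834982-35835041, minus strand): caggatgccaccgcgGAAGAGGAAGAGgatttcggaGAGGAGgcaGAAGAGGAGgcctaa
Tubb2a (chr13:34074468-34074527, minus strand): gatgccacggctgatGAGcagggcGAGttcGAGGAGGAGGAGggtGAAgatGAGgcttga
Tubb2b (chr13:34127471-34127530, minus strand): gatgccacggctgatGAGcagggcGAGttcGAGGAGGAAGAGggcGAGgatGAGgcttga
Tubb3 (chr8:123421623-123421682, plus strand): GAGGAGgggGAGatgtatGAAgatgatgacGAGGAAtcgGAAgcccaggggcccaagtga
Tubb1 (chr2:174457823-174457882, plus strand): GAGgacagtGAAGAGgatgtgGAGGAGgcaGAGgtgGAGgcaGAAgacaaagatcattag
Tubb4b had 10 such codons of 20, Tubb4a and Tubb5 had 9, Tubb1, Tubb2a and Tubb2b had 8, and Tubb3 had 7. Counted back from the stop, Tubb2a and Tubb2b differed at 3 of the 60 bases and Tubb4a and Tubb4b at 13. The Tubb3 end differed from the other ends at 32 to 36 bases and the Tubb1 end at 24 to 32. These counts allow no gaps. The coding sequences of Tubb3 and Tubb1 are longer (1353 and 1356 bases) than the others shown (1335 to 1338), so their ends may be compared out of step.

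At the other end of the coding sequence, Tubb4b and Tubb3 opened with the same 12 bases, ATGAGGGAGATC. The other 5 genes shown above each had their own spelling of these 12 bases, such as ATGAGGGAAATC in Tubb5 and ATGCGCGAGATC in Tubb2a. All of these spellings encode the same amino acids. All 8 coding sequences were 1335 to 1356 bases long and lay on 4 exons. Over the 28 pairs of genes, coding identity ran from 73.5% to 96.5% with a median of 82.8%. The closest pair was Tubb2a and Tubb2b, which are also neighbours on chromosome 13. The next closest, Tubb3 and Tubb6, shared 85.9%. Tubb1 was the most distant, at 73.5% to 76.2% from every other member.

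One gene supplied most of the beta tubulin mRNA. Tubb4b (ENSMUSG00000036752.4, chromosome 2, 25222160 to 25224702 on mm10), an isotype known from cilia and sperm tails, reached 253 and 1645 TPM. TPM is a level corrected for transcript length and library depth. The ratio of the libraries moved with GC content, as given below, so comparisons of levels, shares and places between genes of unlike GC content carry that limit. Tubb4b held 92.5% of the TPM summed over the 8 genes in replicate 1 (95% exact interval 92.0 to 93.0) and 92.4% in replicate 2 (92.2 to 92.7). The summed level itself was 273 and 1779 TPM, so the share was nearly equal while the level was not. Without length scaling Tubb4b held 91.0% and 90.4% of the family's expected counts. No molecular identifiers are given, so reads are not independent molecules and the intervals cover counting error alone.

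By TPM, Tubb4b stood at place 615 and place 33 among 21474 protein-coding genes. Its expected counts, which are estimated reads, were 7736 and 31938. The authors' posterior SDs of these counts were 2.85 and 11.9 reads, so the assignment of reads among similar genes adds little to the error of this gene. The deposited TPM interval for replicate 1 (237 to 248) surrounds the posterior mean of 242 TPM and does not include the TPM of 253. For the members, these intervals are therefore read against the posterior mean only. Nearly all of the gene's level was the transcript Tubb4b-201 of 1598 bases, at 99.94% and 99.93%.

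**Figure D1:**
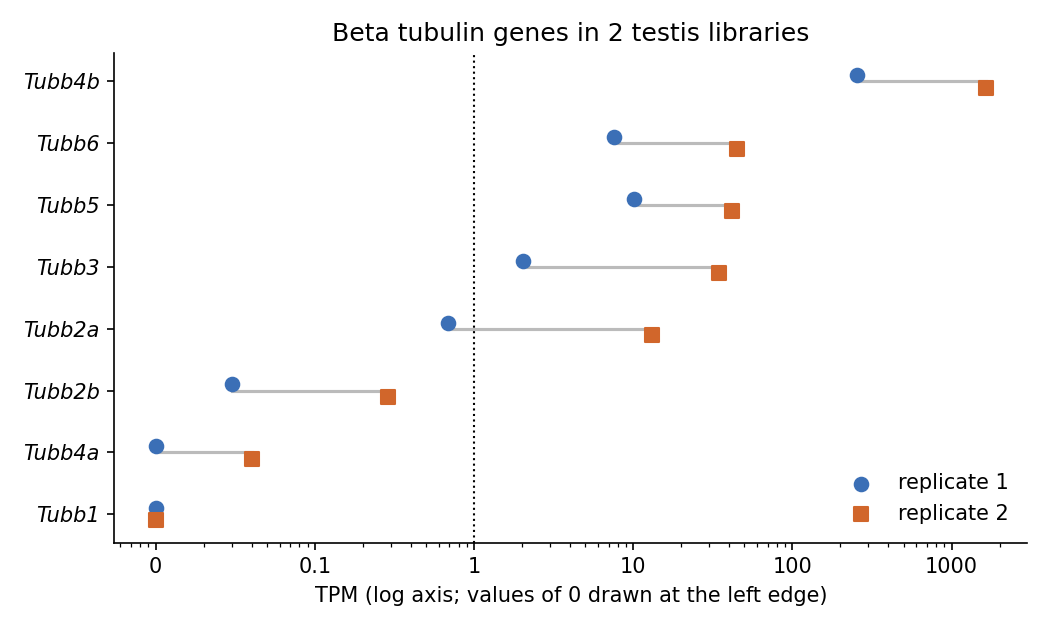
TPM of each beta tubulin gene (log axis) in replicate 1 (circles) and replicate 2 (squares), with genes ordered by mean TPM and a dotted line at 1 TPM. Tubb4b stands apart from all other members in both libraries. Every member with any reads is drawn higher in replicate 2, which for Tubb4a rests on 1 read and gives no direction.

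Tubb5, Tubb6 and Tubb3 were present at lower levels in both libraries. Tubb5 (ENSMUSG00000001525.10, chromosome 17, 35833921 to 35838306), a form made in most dividing cells, was at 10.1 and 41.6 TPM from 412 and 1379 reads. Tubb6 (ENSMUSG00000001473.6, chromosome 18, 67390717 to 67402749), a widely expressed form, was at 7.55 and 44.9 TPM from 257 and 970 reads. Tubb3 (ENSMUSG00000062380.3, chromosome 8, 123411424 to 123422015), best known as a neuronal form, was at 2.03 and 34.6 TPM from 74 and 800 reads. They held 3.69% and 2.34%, 2.76% and 2.52%, and 0.74% and 1.94% of the family's TPM. The posterior SD of the gene count was 0 for each of the 3 in both libraries. None of their stretches of 100 bases occurred in a transcript of another gene.

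Tubb2a (ENSMUSG00000058672.6, chromosome 13, 34074274 to 34078007), abundant in brain, was at 0.69 and 13.2 TPM, on either side of 1 TPM. Its counts were 20.96 and 253.96 reads. Its close relative Tubb2b (ENSMUSG00000045136.5, chromosome 13, 34126748 to 34130466), a form of the developing brain, had 1.04 and 7.04 reads, which is 0.03 and 0.29 TPM. These 2 genes divide reads between them: 36.9% of the 100-base stretches of Tubb2a occur in other genes' transcripts, as do 27.7% of those of Tubb2b, and 543 stretches are common to the pair. The posterior SD was 0.27 reads for each in replicate 1 and 1.73 in replicate 2. Among the quantified genes Tubb2a is thus well fixed and the few reads of Tubb2b are uncertain.

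The remaining members had almost no reads. Tubb4a (ENSMUSG00000062591.5, chromosome 17, 57080066 to 57087782), a brain form whose protein end resembles that of Tubb4b, had 0 reads and 1 read. Tubb1 (ENSMUSG00000016255.5, chromosome 2, 174450695 to 174457882), the form of platelets and their precursors, had 0 reads in both. With no reads the level could still be that of 3 counts. For Tubb1 this limit is 0.11 TPM in replicate 1 and 0.18 TPM in replicate 2, and for Tubb4a 0.07 TPM in replicate 1. Thus 4 of 8 members reached 1 TPM in both libraries, and 5 of 8 did in replicate 2.

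The order of the levels was nearly the same in both libraries. Replicate 1 ran Tubb4b, Tubb5, Tubb6, Tubb3, Tubb2a and Tubb2b. In replicate 2 Tubb6 stood above Tubb5. Tubb5 over Tubb6 was 1.33 in replicate 1 (95% exact interval 1.14 to 1.57, on length-scaled counts), and Tubb6 over Tubb5 was 1.08 in replicate 2 (0.99 to 1.17). The order of these 2 genes turned between the libraries, and in replicate 2 they could not be told apart. Tubb4b was 25.1 times the next gene in replicate 1 (22.7 to 27.8) and 36.6 times in replicate 2 (34.4 to 39.1). Tubb3 over Tubb2a was 2.93 (1.78 to 5.01) and 2.62 (2.27 to 3.03). At the bottom, Tubb4a and Tubb1 were not told apart in either library, nor were Tubb2b and Tubb4a in replicate 1.

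Only Tubb4b and Tubb5 had more than 1 annotated transcript, and of these Tubb5 was the one whose transcripts were split differently. The protein-coding Tubb5-201 of 2649 bases held 70.2% and 97.1% of the gene's level. Tubb5-203, a retained-intron transcript of 711 bases, held 27.1% and 0%. That share rests on 31.01 reads with a posterior SD of 7.98 in replicate 1 and on 0 reads in replicate 2. Another retained-intron transcript, Tubb5-204, had 0 and 11.6 reads (posterior SD 0.27 and 3.84). The same transcript led in both libraries for 6 of 8 genes, and the others, Tubb1 and Tubb4a, had no reads in at least 1 library. The 8 genes had 12 annotated transcripts, so apart from Tubb4b and Tubb5 the leading transcript of a gene with reads was fixed in advance.

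A processed pseudogene of Tubb4b outranked every member but Tubb4b in replicate 2. Tubb4b-ps1 (chromosome 5, 7179365 to 7180700, plus strand, a single exon) was at 4.21 and 63.7 TPM from 104.8 and 1008 reads, with posterior SDs of 2.85 and 11.9 reads. Its level was 1.66% and 3.87% of that of Tubb4b. It was found because its name begins with that of a member. Aligned to the Tubb4b coding sequence it was 98.3% identical, with 19 different bases, 1 run of 3 missing bases and 1 base beyond the stop. From its first ATG the pseudogene ran for 444 codons before a stop, against 445 in Tubb4b. Whether it is translated was not measured.

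The window of 150 bases with the most differences between Tubb4b and Tubb4b-ps1 is shown because reads inside the coding sequence are told apart only at such bases. It covers coding bases 1054 to 1203 of Tubb4b, counted from the A of the start codon. Capitals mark the 7 bases that differ.
Tubb4b (chr2:25222443-25222592, minus strand): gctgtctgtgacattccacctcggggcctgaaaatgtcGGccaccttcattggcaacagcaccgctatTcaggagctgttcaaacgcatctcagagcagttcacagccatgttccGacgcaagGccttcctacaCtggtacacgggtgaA
Tubb4b-ps1 (chr5:7180415-7180564, plus strand): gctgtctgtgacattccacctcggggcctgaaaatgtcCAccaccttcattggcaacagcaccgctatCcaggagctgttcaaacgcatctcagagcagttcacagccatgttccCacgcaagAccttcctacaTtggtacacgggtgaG
Outside such windows the copies can share long runs. The longest identical run was 260 bases, and 411 of the 1499 stretches of 100 bases in Tubb4b-201 also occur in Tubb4b-ps1.

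**Figure D2:**
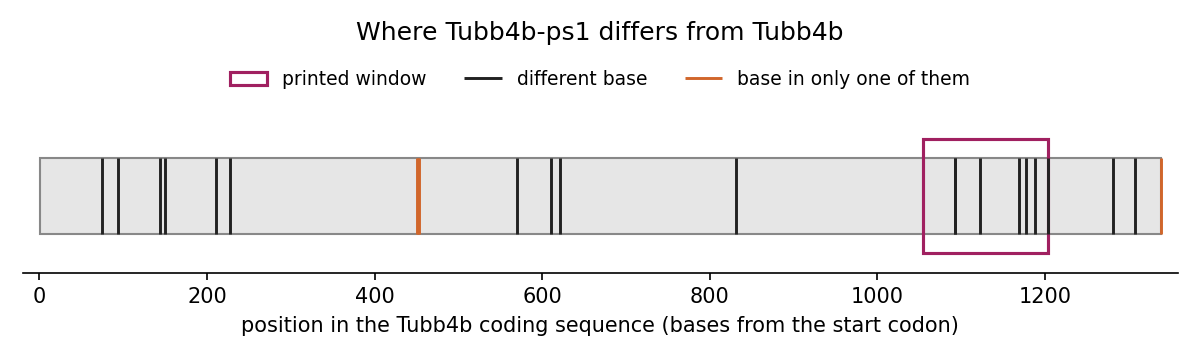
Positions in the Tubb4b coding sequence (bases from the start codon) at which Tubb4b-ps1 has a different base (black) or at which only one of them has a base (orange), with the printed window outlined. The 23 differing positions are spread over the coding sequence and are densest in the window, where 7 fall within 150 bases.

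The other related pseudogenes measured had few or no reads. Tubb4b-ps2 (chromosome 1, 24594087 to 24595423), 95.7% identical to the Tubb4b coding sequence, had 0 and 5.17 reads and a stop after 207 codons. Gm11892, Gm8908 and Gm16165, found by similarity of at least 80% over 300 bases, had 0 reads in both libraries. Another 3 similar pseudogenes had no entry among the quantified genes, so they have no levels. Of these, Tubb2a-ps2 shares 70 stretches of 100 bases with Tubb2a and 90 with Tubb2b, which enter the shares given above. The posterior SDs of Tubb2a and Tubb2b do not cover reads that Tubb2a-ps2 may have given. Of the genes that overlap members, Fam166a lies on the opposite strand and covers 121 bases of the Tubb4b locus, with 1246 and 4522 reads of its own. Gm20388 covers the whole of Tubb3 on the same strand and had 35.5 and 174.9 reads. Whether strand was used in the counting is not given in the sources used here.

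All tested members were higher in replicate 2. The reads of both libraries were compared by an exact two-sided conditional binomial test with library sizes scaled by TMM, over the 18589 genes whose mean count reached 10. Calls needed a Benjamini-Hochberg adjusted p under 0.05 together with at least a 2-fold ratio. Such a test speaks of these 2 libraries, not of conditions or animals. Of the 8 members, 5 passed the filter and 5 were called higher in replicate 2, where 55.8% of all tested genes were called in either direction, 32.1% higher and 23.7% lower. With plain library totals 70.3% of all calls were higher, against 57.5% with TMM, and the median of all genes moved by 0.29 on the log2 scale. The median log2 ratio was 2.38 over the 5 members and 0.00 over all tested genes. Members that were tested had to have reads in at least 1 library, so this count does not describe all 8.

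The scaled count ratio was largest for Tubb2a, at 15.0 (log2 3.90, 95% exact interval of the ratio 9.79 to 25.1, adjusted p = 4.12e-64), and for Tubb3, at 13.6 (log2 3.76, 10.8 to 17.6). It was 5.22 for Tubb4b (log2 2.38, 5.09 to 5.35), 4.76 for Tubb6 (log2 2.25, 4.15 to 5.49) and 4.23 for Tubb5 (log2 2.08, 3.79 to 4.73). The intervals of Tubb2a and Tubb3 overlapped, and both lay above the interval of each of the other 3 genes. Tubb2b, below the filter, had a ratio with an interval from 1.14 to 399.

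Over all tested genes the ratio moved with transcript GC content, while the 5 members did not follow GC content in their own order. The members' most abundant transcripts held 52.0% GC (Tubb5), 54.9% (Tubb4b), 55.2% (Tubb2a), 56.6% (Tubb6) and 57.9% (Tubb3), against a median of 49.1% over all tested genes. Among the 4741 tested genes within that range of GC content, 75.4% were called higher in replicate 2 and 0.84% lower, with a median log2 ratio of 1.86. When ratios were measured from the median of genes of like GC content, 2 of the 5 members stayed called. These were Tubb2a (log2 1.89, adjusted p = 1.49e-11) and Tubb5 (log2 1.30, adjusted p = 4.51e-65). After this correction 19.6% of 18404 genes were called, 11.0% higher and 8.69% lower.

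For the other 3 members the ratio moved close to that of genes of like GC content. Tubb4b was left with a log2 ratio of 0.11, Tubb3 with 0.46 and Tubb6 with -0.48, all under the limit on the ratio and Tubb6 in the opposite direction. Tubb4b-ps1 had a log2 ratio of 3.59 before the correction and 1.32 after it (adjusted p = 3.82e-23) at 55.1% GC. The pseudogene and its parent thus differed in ratio at nearly equal GC content: Tubb4b was 60.1 times Tubb4b-ps1 in replicate 1 and 25.8 times in replicate 2.

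**Figure D3:**
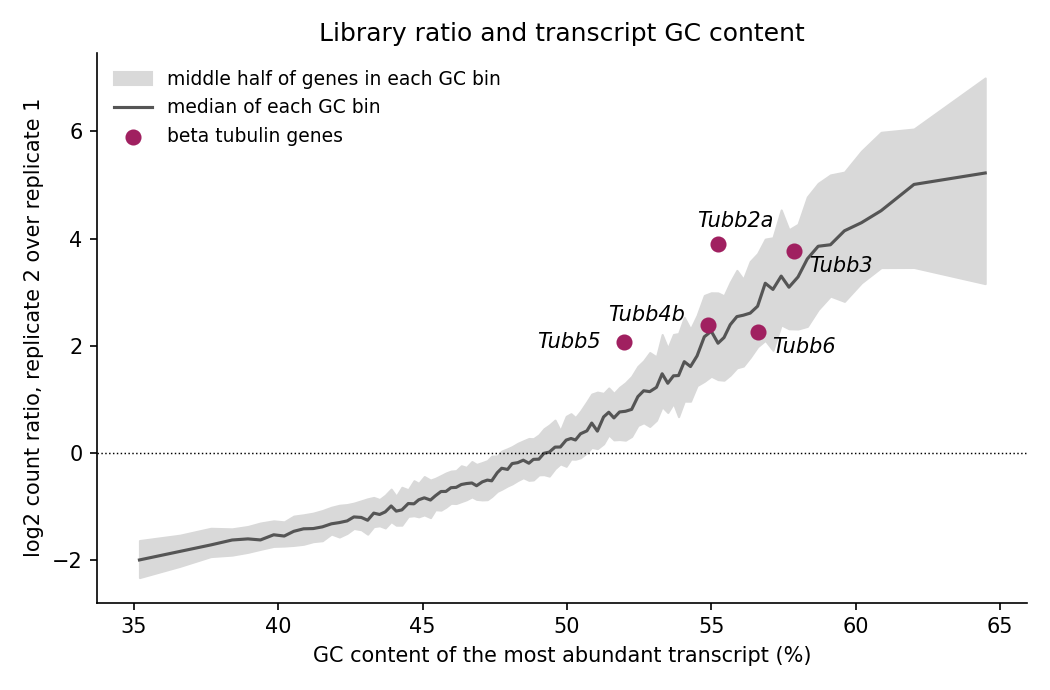
Log2 count ratio of replicate 2 over replicate 1 against GC content of each gene's most abundant transcript, with the median (line) and the interquartile range (band) of all tested genes in 100 GC bins and the 5 tested beta tubulin genes as points. The bin medians climb from -1.996 at 35.2% GC to 5.22 at 64.5%, Tubb4b lies on the line, and Tubb2a and Tubb5 lie above the band.

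Alpha tubulins, the partners in the dimer, summed to 132 and 2985 TPM, below the beta tubulins in replicate 1 and above them in replicate 2. Their highest members were Tuba3a (24.3 and 1255 TPM) and Tuba3b (20.9 and 1084 TPM), and 7 of 8 were called higher in replicate 2 and 0 lower (median log2 ratio 3.66). After the GC correction 3 were called higher and 0 lower, with a median of 0.94. The posterior SD of the count was 1.38 reads in replicate 1 and 17.6 in replicate 2 for both Tuba3a (697 and 22855 reads) and Tuba3b (719 and 23679 reads).

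Genes that fold tubulin were present throughout. All 14 folding cofactors and prefoldin subunits were detected, led by Tbca (481 and 274 TPM), which receives beta tubulin after folding, and the prefoldin subunits Pfdn5 (137 and 451 TPM) and Pfdn1 (123 and 119 TPM). Between the libraries 6 of these 14 were called higher in replicate 2 and 3 lower, with a median log2 ratio of 0.59, and after the GC correction 3 were higher and 1 lower. All 9 genes of the CCT chaperonin, the chamber in which tubulins fold, were detected, and Tcp1 (2588 and 1242 TPM) and Cct4 (583 and 311 TPM) led. In this list 2 were called higher and 3 lower (median -0.27), and after the GC correction 0 in either direction.

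The enzymes that add or remove glutamate and glycine at tubulin tails summed to 1465 and 2361 TPM, with 19 of 22 detected. Agbl5 (84.9 and 431 TPM) and Agtpbp1 (354 and 147 TPM), which remove glutamate, and Ttll13 (156 and 271 TPM), of the family that adds it, were the highest. In this list 8 of 22 were called higher in replicate 2 and 2 lower (median log2 ratio 0.59). Agbl5 and Ttll13 were among those higher and Agtpbp1 was lower (log2 1.83, 1.12 and -1.005). After the GC correction Ttll13 stood at -0.32 and Agtpbp1 at 0.08, both in the opposite direction, Agbl5 had no GC value, and 4 of the list were called higher and 0 lower. Genes that take part in alpha-tubulin tyrosination or acetylation, or in the reversal of either, were led by Svbp (66.2 and 158 TPM), Sirt2 (22.5 and 108 TPM) and Vash2 (56.8 and 63.5 TPM). Of the 7, 5 were detected, 3 called higher and 0 lower (median log2 ratio 0.93). The GC correction turned this median to -0.51, with 0 called higher and 1 lower.

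Genes that nucleate, cut or bind microtubules were lower in sum than the tail enzymes. The list of gamma, delta and epsilon tubulins with the gamma-tubulin ring had 10 of 12 detected (183 and 339 TPM), led by Mzt2 (12.5 and 138 TPM), Tubgcp4 (38.9 and 29.1 TPM) and Tubgcp2 (13.4 and 47.6 TPM), with 5 called higher and 2 lower (median log2 ratio -0.14, turned to 0.38 by the GC correction, with 2 called higher and 0 lower). Severing enzymes had 7 of 9 detected, led by Katnal2 (53.5 and 71.0 TPM), Fignl1 (73.4 and 35.2 TPM) and Katnal1 (26.3 and 79.9 TPM), with 1 of 8 tested called higher and 3 lower (median -0.37, turned to 0.27, with 2 called higher and 0 lower). Microtubule associated proteins and stathmins had 8 of 15 detected, led by Stmn1 (191 and 292 TPM), Mapre3 (79.0 and 175 TPM) and Mapre1 (190 and 63.6 TPM), with 6 of 12 tested called higher and 1 lower (median 0.67, turned to -0.02, with 1 called higher and 2 lower). Of the pair that acts in tubulin mRNA autoregulation, Ttc5, which recognises the emerging tubulin, was at 3.79 and 13.5 TPM and Scaper at 55.7 and 28.9 TPM. Ttc5 was called higher and Scaper lower, and after the GC correction neither was called.

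**Figure D4:**
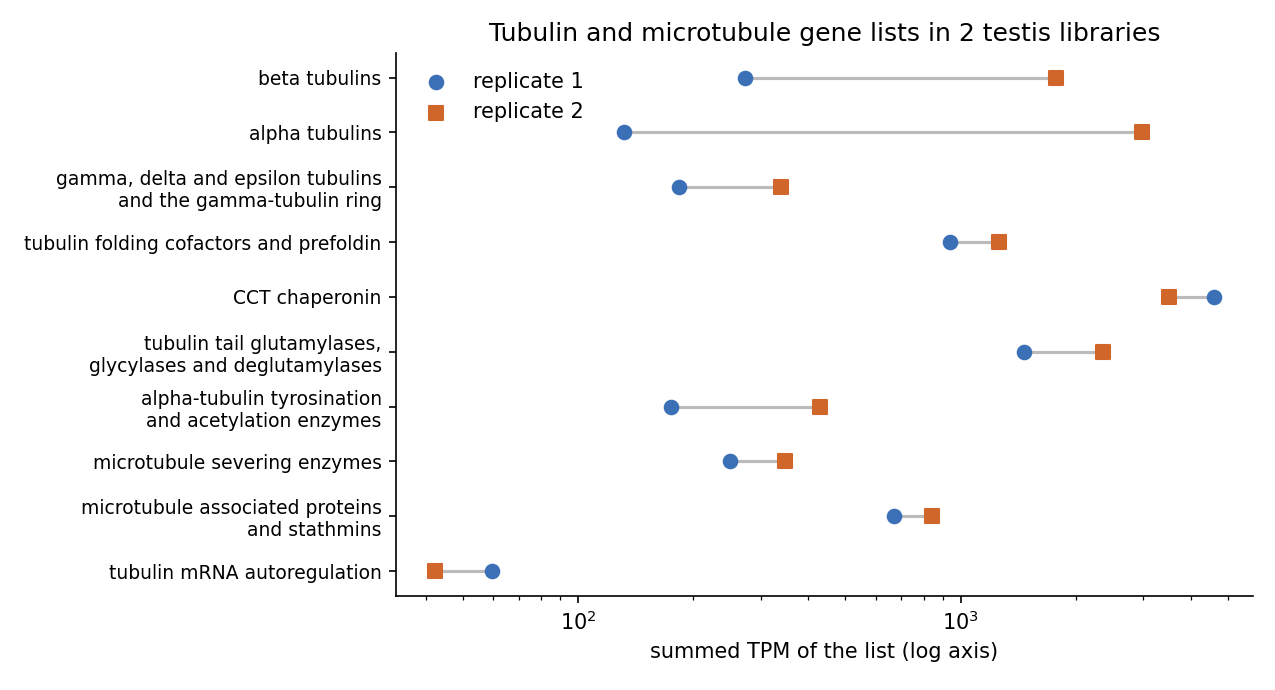
Summed TPM (log axis) of the beta tubulins and of 9 lists of related genes in replicate 1 (circles) and replicate 2 (squares). The beta tubulins went from 273 to 1779 TPM and the alpha tubulins from 132 to 2985 TPM, while the CCT and autoregulation lists were lower in replicate 2.

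The tissue label was checked against markers. Spermatid markers summed to 8048 and 48971 TPM (8 of 9 detected), led by Prm2 (45.4 and 15928 TPM) and Prm1 (3011 and 10087 TPM). Among the 9 spermatid markers 5 were called higher and 1 lower (Akap4, 2072 and 1283 TPM), with a median log2 ratio of 1.46. After the GC correction 3 were called higher and 0 lower, with a median of 0.29. Spermatocyte markers summed to 6032 and 5946 TPM (8 of 8), led by Ldhc (2850 and 4131 TPM) and Pgk2 (1294 and 1045 TPM). Of these 8 spermatocyte markers 0 were called higher and 4 lower, with a median log2 ratio of -1.01. After the GC correction 0 were called in either direction, with a median of -0.19. Spermatogonia markers summed to 63.2 and 59.4 TPM (6 of 7), led by Stra8 (21.7 and 17.2 TPM) and Dmrt1 (22.7 and 16.2 TPM). Sertoli cell markers summed to 1194 and 1525 TPM (9 of 10), led by Clu (836 and 1031 TPM) and Aard (194 and 145 TPM). Leydig cell markers summed to 533 and 2197 TPM (7 of 7), led by Insl3 (83.2 and 1630 TPM) and Cyp17a1 (225 and 242 TPM). Of these 7 Leydig cell markers 2 were called higher and 1 lower, with a median log2 ratio of -0.12, and Insl3 turned from 3.99 to -1.23 under the GC correction. Peritubular markers summed to 131 and 500 TPM (5 of 7), led by Actg2 (100.5 and 391 TPM) and Acta2 (9.63 and 58.5 TPM).

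Markers of neurons and of platelets, cells in which some of the rarer beta tubulins are best known, were low in sum. Neuron and nerve markers summed to 7.29 and 19.5 TPM, with 2 of 9 detected (Slc17a7 at 1.88 and 10.6 TPM and Elavl4 at 3.13 and 5.22 TPM), while Tubb3 alone was at 2.03 and 34.6 TPM. The 9 markers had 2 to 112 reads in replicate 1 and 3 to 401 in replicate 2. Of these, Stmn2 is also in the list of microtubule associated proteins and stathmins. Platelet and megakaryocyte markers summed to 3.39 and 12.5 TPM, with 1 of 8 detected (Pf4 at 1.97 and 4.67 TPM). Gp1bb was at 0.85 and 5.25 TPM and Itga2b at 0.02 and 1.56. Gp9 and Ppbp were at 0 in both libraries, as was Tubb1. Of the 4 platelet and megakaryocyte markers tested, 3 were called higher in replicate 2 and 0 lower (median log2 ratio 1.66). The GC correction turned this median to -1.08, with 0 called higher and 2 lower. Endothelial markers summed to 7.33 and 14.2 TPM (Vwf at 0.76 and 5.36, Cdh5 at 0.87 and 3.76), with 2 of 6 called higher, 1 lower, a median log2 ratio of 0.17 and 0 called after the GC correction. Macrophage markers summed to 51.4 and 93.2 TPM (Lyz2 at 15.9 and 30.8, Mrc1 at 29.3 and 13.1). Red blood cell markers summed to 27.2 and 328 TPM (Hbb-bs at 8.28 and 111, Hba-a2 at 0 and 102). Hba-a1, the other alpha globin gene in the list, was at 11.9 and 75.5 TPM with the same posterior SDs as Hba-a2 (4.09 and 22.9 reads). Alpha globin reads were thus present in replicate 1. All 5 red blood cell markers were called higher (median log2 ratio 3.87), and after the GC correction 3 were higher and 0 lower (median 3.20). The part of any of these cells in the beta tubulin levels was not tested.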

How the data were processed

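PolyA mRNA of 1 mouse testis was sequenced in 2 technical replicate libraries. Per the deposited notes, genes and transcripts were quantified separately for each library from transcriptome alignments on mm10 with annotation release M4. Aligner and quantifier: not given in the sources used here. Deposited by the authors were expected counts (estimated reads, not normalized), TPM, FPKM, each transcript's percent of its gene's level, and posterior means, a posterior SD of each count (a score with no fixed range) and TPM bounds whose level is not stated.

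Names, positions and transcript sequences came from GENCODE M21 on the same assembly, matched by identifier without version for 42462 of 43346 genes. In M21 the leading transcripts of Tubb2a and Tubb2b are longer (1610 and 2182 bases) than in the tables (1584 and 1922). Expected counts summed to 31995370 and 20675521 after rounding. The limit for a gene without reads was 3 counts, or 0.0938 and 0.145 CPM.

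Detection required 1 TPM in each library. With 1 library on each side the edgeR quasi-likelihood test has no residual degrees of freedom, so rounded counts were compared by an exact conditional binomial test (smaller tail doubled) with TMM factors from edgeR 4.0.16 (0.904 and 1.11). The log2 ratio adds 0.5 to each count. The test was tested on simulated data. These held counting error alone and no GC effect, unlike the libraries. The GC correction used 100 bins of equal gene number, and 99.0% of tested genes had a GC value. Other alternatives were plain totals, DESeq2 1.42.0 size factors, other filters, ratio limits and units, and an assumed coefficient of variation of 0.1. Pseudogenes named after members, with similar transcripts from BLAST 2.17.0, were described by their alignment (Biopython 1.88). Scripts ran under Python 3.11.15 (scipy 1.17.1, pandas 2.3.3) and R 4.3.3. The rule for named genes took all members, the 3 genes of highest mean TPM of each pathway list (2 for alpha tubulins and CCT), and the 2 highest of each marker list, of which 1 list is not reported here. Stmn2, Gp9, Ppbp, Itga2b, Akap4 and Hba-a1 were named after their values were seen. With 2 libraries no likeness of pattern across samples can be measured, so no gene is named for it. The members, lists and tests were chosen with earlier results of these data known. The alignments, shared stretches, printed windows and the background of genes in the members' GC range were chosen after seeing the data.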

Additional observations from a re-analysis of the deposited data

How the results depend on the processing

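The share of Tubb4b, 92.5% as the mean of both libraries, was 92.4% on posterior mean TPM and 90.7% on expected counts without length scaling, and 92.4% to 92.5% with either library left out. The count of detected genes, 4, was 3 to 5 under other limits and 4 to 5 with either library left out. Of the 8 places in the order by mean TPM, 4 were held on posterior mean TPM. There Tubb5 and Tubb6 nearly tie and change places, as do Tubb4a and Tubb1, which had almost no reads. With either library left out 5 to 8 places were held, a check added after seeing the data (5 without replicate 2). The 5 calls between the libraries became 2 under the GC correction, which turned Tubb6 to a log2 ratio of -0.48 and left Tubb3 at 0.46 and Tubb4b at 0.11 without a call, and stayed at 5 under the other 8 alternatives. Over all tested genes the calls fell from 5960 higher and 4408 lower to 2016 and 1600 under the GC correction. With plain library totals they were 6720 and 2845 (70.3% higher, against 57.5%), and the median log2 ratio of all genes was 0.29. Genes with few reads (Tubb2b, Tubb4a and Tubb1) are limited by depth. No paired analysis was possible because there is 1 group. The libraries come from 1 animal, so p-values measure only differences between these libraries.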
